A study of Homo sapiens with 2 samples.

Results

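The genes described here encode the COPI vesicle coat, the cargo receptors that cycle between the endoplasmic reticulum (ER) and the Golgi apparatus, and the SNAREs, tethers and ARF regulators that work with them. They were chosen by name, as 39 symbols of which 38 were found in both deposited tables out of 23614 distinct gene names (COPG, an older symbol of COPG1, matched no row). The RNA came from HEK293 cells, a human embryonic kidney cell line, either wild-type (WT) or lacking the ER stress sensor kinase PERK (PERK-KO, the knockout). Both were kept for 12 h in OXPHOS medium, a glucose-free medium with 10 mM galactose and 1 mM pyruvate in which cells depend on mitochondrial respiration. PERK-KO cells were made by CRISPR/Cas9 and grown from single cells, so the PERK-KO library stands for 1 edited line, and the sources used here do not name the guide or clone that was sequenced. Each genotype has 1 library, so nothing measured here has a replicate error and no difference was tested. The genotype cannot be told apart from a difference between cultures, clones or libraries, and in bulk RNA fewer expressing cells cannot be told apart from less RNA per cell.

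COPI, a coat of coatomer recruited to Golgi membranes by the GTPase ARF1, buds vesicles that bring escaped ER residents, cargo receptors and SNAREs back to the ER. KDEL receptors bind the C-terminal retrieval signal of ER chaperones and ride in these vesicles, whereas p24 proteins and mannose-binding lectins carry cargo out of the ER and return. PERK is 1 of the sensors of the unfolded protein response, the programme by which cells enlarge the folding and export capacity of the ER when unfolded proteins build up.

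Expression is given as FPKM, sequenced fragments scaled by transcript length and by library size, with the lower and upper confidence limits that the authors deposited beside it. FPKM is scaled by transcript length, so levels of different genes are on 1 scale, but the ratio between these libraries still moved with length, as given at the end, and levels compared between short and long genes carry this. The limits carry error within 1 library and no replicate error. In WT cells ARF1 and KDELR1 had FPKM of 299.7 and 287 and canonical transcripts of 1840 and 1550 bases. Their upper limits lay 4.52% and 2.29% from the value, so fragment number alone did not set the width. The depth of the libraries is unknown, since FPKM carries no fragment totals, and it enters the width of the limits only in part. Over the genes described here, the limits had a median of 5.34% of the value to each side in WT and 5.25% in the knockout. EIF2AK3, which encodes PERK, had an FPKM of 5.61 (5.11 to 6.12) in WT and 3.89 (3.44 to 4.34) in the knockout, so its mRNA was lower but present in the edited line. Of 8 genes that HEK293 cells are known to express, VIM, KRT8, KRT18, CDH2, LHX1 and NEFL exceeded an FPKM of 1 in both libraries and were lower in PERK-KO cells with separate intervals, at ratios from 0.620 for LHX1 to 0.907 for CDH2. PAX2 stayed below 1 in both, and NEFM exceeded 1 only in PERK-KO cells (0.662 and 5.21). Among genes of other cell types, CD3E, ALB and UCP1 were listed at 0 in both libraries, PTPRC was below 0.2, and PECAM1 and ADIPOQ lay between 1.35 and 1.68.

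Much of this machinery was more highly expressed in PERK-KO cells. A total of 37 genes reached an FPKM of 1 in either library. Of these, 24 were higher in PERK-KO cells with separate intervals, meaning that the deposited limits did not overlap, 4 were lower by the same rule, and 9 had overlapping intervals. Over all 14594 rows that passed the same filter, 26.1% were higher and 18.7% lower by this rule, against 64.9% and 10.8% of the genes described here. Because highly expressed genes have narrow intervals, the rule was also read at an FPKM of at least 10, where 24 of 34 genes were higher, against 29.7% of 7709 rows, and 4 were lower, against 28.9%. A difference of more than 1.5-fold was seen upwards in 15 of the 37 genes (40.5%, against 10.1% of all rows) and downwards in 0 (against 7.54%). The median log2 ratio of PERK-KO to WT was 0.41 with an interquartile range of -0.02 to 0.73, beside a median of 0.04 over all rows. COPZ2, the only gene under the filter, had 0.283 (0 to 0.566) in WT and 0.242 (0 to 0.522) in the knockout, which was not distinguishable from 0 at this depth.

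**Figure D1:**
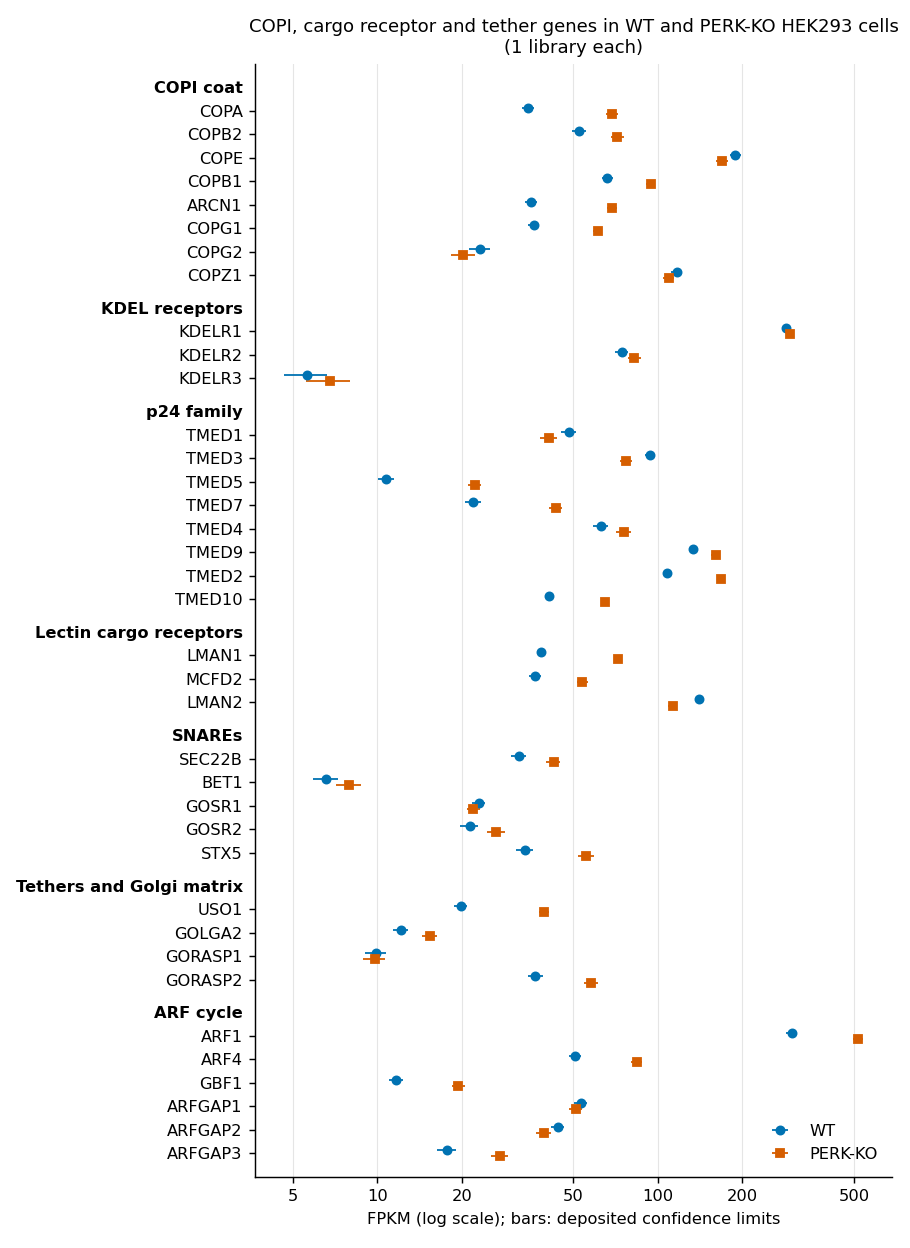
FPKM of the 37 genes over the filter on a log axis, by role, in WT cells (circles) and PERK-KO cells (squares), 1 library each, with the deposited confidence limits as bars. The squares lie to the right of the circles in 27 genes, and the gap is widest for TMED5, COPA, USO1 and TMED7, each close to a doubling. Of all 14594 rows over the filter, 7739 with values above 0 in both libraries were higher in PERK-KO cells.

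The large coatomer subunits COPA, COPB1, COPB2, ARCN1 and COPG1 were each higher in the knockout with separate intervals, whereas the small subunits COPE and COPZ1 and the second γ subunit COPG2 were not. COPA, the α subunit and part of the outer layer of the coat, had an FPKM of 34.5 (32.7 to 36.3) in WT and 68.8 (65.5 to 72) in the knockout, a ratio of 2.0, for which the combined interval was 1.86 to 2.14. The COPA locus is at chr1:160258377-160313354 (GRCh37, minus strand), its canonical transcript has 33 exons, and its start overlaps that of NCSTN by 292 bases. ARCN1, which encodes the δ subunit, had 35.4 (33.6 to 37.1) and 68.5 (65.7 to 71.4), a ratio of 1.94 (1.82 to 2.07). The γ subunit gene COPG1 had 36.0 (34.4 to 37.6) and 61.0 (58.8 to 63.2), a ratio of 1.69 (1.6 to 1.79). These 3 genes stood at nearly the same level as each other in WT cells, with overlapping intervals, and they had the largest ratios of the coat. COPB1, the β subunit, had 66.1 (63.0 to 69.1) in WT and 94.1 (90.5 to 97.8) in the knockout, and COPB2, the β′ subunit that reads dilysine sorting signals together with COPA, had 52.4 (49.5 to 55.3) and 71.7 (68.0 to 75.5). Their ratios of 1.42 (1.34 to 1.51) and 1.37 (1.27 to 1.48) lay below that of COPG1.

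The small coat subunits were the most abundant coatomer mRNAs in both libraries. COPE, the ε subunit, had 189 (180.1 to 197) in WT and 169.7 (161 to 178) in the knockout, slightly lower with separate intervals, a call that was lost, with the log2 ratio at 0.11, once the running median of all genes over transcript length was subtracted. COPZ1, the ζ subunit, had 117 (112 to 122) and 109 (104 to 114), with overlapping intervals. The level of COPE relative to COPA was therefore 5.48 (5.11 to 5.87) in WT and 2.47 (2.31 to 2.64) in PERK-KO cells. Across COPA, COPB1, COPB2, ARCN1, COPG1, COPE and COPZ1, the highest FPKM was 5.48 times the lowest in WT and 2.78 times in the knockout. The 7 subunit mRNAs were thus closer to one another in PERK-KO cells. Canonical transcripts of the large subunits run from 3078 bases (COPG1) to 5318 (COPA), against 1131 for COPE and 1890 for COPZ1. With the running median over transcript length subtracted, log2 ratios ran from 0.38 (COPB2) to 0.82 (COPA) for the large subunits. COPE had 0.11 and COPZ1 -0.003 in the same setting. How much of this narrowing goes with length was not tested. COPG2 had 23.3 (21.3 to 25.3) and 20.3 (18.3 to 22.2), with overlapping intervals although the combined interval of the ratio, 0.766 to 0.990, lay below 1. Out of the summed FPKM of both γ subunit genes, COPG1 held 60.7% in WT and 75.1% in the knockout.

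The ARF cycle puts the coat on the membrane and takes it off. ARF1, the GTPase that recruits coatomer, was the most abundant mRNA of all the genes described here in both libraries, at 299.7 (286 to 313) in WT and 518 (496 to 541) in the knockout, a ratio of 1.73 (1.63 to 1.84). Its locus is at chr1:228270361-228286913 (GRCh37, plus strand), and in WT cells its interval overlapped that of KDELR1, the next in order. ARF4, a class II ARF of the early secretory pathway, had 50.6 (48.0 to 53.1) and 83.9 (80.4 to 87.5), a ratio of 1.66 (1.55 to 1.77). GBF1, the exchange factor that loads ARFs with GTP at the cis-Golgi, had 11.7 (11.0 to 12.4) and 19.4 (18.4 to 20.5), a ratio of 1.66 (1.54 to 1.80). The combined intervals of these 3 ratios overlap.

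The ARFGAPs, which trigger hydrolysis of GTP on ARF1 and so release the coat, did not share 1 direction. ARFGAP3 had 17.7 (16.4 to 19.1) in WT and 27.4 (25.5 to 29.3) in the knockout, a ratio of 1.55 (1.39 to 1.72). ARFGAP1 had 53.1 and 50.9 and ARFGAP2 had 43.9 and 39.2, both with overlapping intervals. The summed FPKM of the 3 ARFGAPs was 115 in WT and 117 in the knockout, while the share of ARFGAP3 in it went from 15.4% to 23.3%.

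Promoter windows were searched for elements that bind transcription factors of the unfolded protein response. The windows, from 250 bases before to 50 after the annotated start, were RefSeq sequences on GRCh38.p14, and 32 of the 38 genes had an entry. ARF4, ARFGAP1, KDELR2, TMED4, TMED9 and USO1 had none. The core TGACGTG of the unfolded protein response element was present on either strand in 9 of the 32 genes (28.1%), against 2.40% of the 27305 genes in the promoter table and 3.37% of its 9969 genes over the expression filter. The 9 were COPA, COPB1, COPB2, COPE, ARF1, GBF1, STX5, GORASP1 and KDELR3. Of these, COPA, COPB1, COPB2, ARF1, GBF1 and STX5 were higher in PERK-KO cells with separate intervals, GORASP1 and KDELR3 had overlapping intervals, and COPE was lower. Among the 22 genes over the filter that had a window without the core, 13 were higher with separate intervals. The median log2 ratio was 0.51 with the core and 0.38 without it. The ER stress response element (CCAAT, then 9 bases, then CCACG) and its second form (ATTGG, then 1 base, then CCACG) were found in 0 of the 32 genes, and in 0.0916% and 0.0696% of the genes in the table. A core followed by G also holds CCACG, the final block of those elements, on the other strand. A match describes letters in a window and shows no binding.

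The cores that lie upstream of the start are given in the direction of the gene, with the core, or CACGTCA where it runs on the other strand, in capitals, as these are the windows in which coat, ARF, SNARE and receptor genes share letters. The lines are from ARF1 (chr1:228082672-228082707, plus strand), STX5 (chr11:62832052-62832087, minus strand), COPB1 (chr11:14499832-14499878, minus strand), COPB2 (chr3:139389816-139389862, minus strand), KDELR3 (chr22:38468031-38468077, plus strand) and GORASP1 (chr3:39107630-39107676, minus strand).
ARF1: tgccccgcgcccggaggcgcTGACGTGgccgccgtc
STX5: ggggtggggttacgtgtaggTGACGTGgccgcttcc
COPB1: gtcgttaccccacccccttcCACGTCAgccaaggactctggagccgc
COPB2: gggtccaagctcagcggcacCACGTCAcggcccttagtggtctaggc
KDELR3: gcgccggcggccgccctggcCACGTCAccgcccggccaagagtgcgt
GORASP1: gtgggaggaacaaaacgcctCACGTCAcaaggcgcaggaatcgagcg
The core ended 9 bases before the start in ARF1 and STX5, 22 in GORASP1, 38 in KDELR3, 40 in COPB1, and 155 or 188 in COPB2, which has 2 annotated starts. In all but GORASP1 the core was followed by G on its own strand. The cores of COPA and GBF1 lay past the start, that of COPE spanned it, and COPB2 had a further core at its start.

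The KDEL receptors had the lowest median log2 ratio of the groups, 0.15, and none passed 1.5-fold. KDELR1 had 287 (280.1 to 293) in WT and 296 (289 to 303) in the knockout, with overlapping intervals. KDELR2 had 74.3 (70.4 to 78.2) and 82.5 (78.2 to 86.8), whose limits were barely apart, and KDELR3 had 5.62 (4.66 to 6.59) and 6.77 (5.55 to 7.99), with overlapping intervals. KDELR1 made up 78.2% of the summed receptor FPKM in WT and 76.8% in the knockout, and the sum went from 367 to 386. KDELR3 was the lowest of the 37 genes in both libraries, and the combined interval of its ratio was wide, from 0.939 to 1.54.

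The p24 family, small transmembrane proteins that act as cargo adaptors in COPI and COPII vesicles and assemble with each other, was divided. TMED2, the β member, had 107 (104 to 111) in WT and 168 (164 to 173) in the knockout, and TMED10, the δ member, had 41.0 (39.6 to 42.4) and 64.7 (62.8 to 66.6). Their ratios of 1.57 (1.51 to 1.63) and 1.58 (1.51 to 1.65) have overlapping intervals, and the level of TMED10 relative to TMED2 was 0.382 in WT and 0.384 in the knockout. These are the p24 proteins with a single gene in their subfamily. The α members were higher by less. TMED9 had 133 (129 to 138) and 161 (155 to 166), and TMED4 had 62.5 (58.5 to 66.4) and 75.6 (71.0 to 80.2).

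Among the γ members, which are alternatives for 1 place in p24 complexes, 2 were higher and 2 lower, while TMED6, which is on the related list, stayed under the filter (0.134 and 0.996). TMED5 had 10.7 (10.02 to 11.4) in WT and 22.2 (21.0 to 23.4) in the knockout, and its ratio of 2.07 (1.90 to 2.26) was the largest of the 37 genes. TMED7 had 22 (20.6 to 23.4) and 43.3 (40.9 to 45.7), a ratio of 1.97 (1.81 to 2.14). In the other direction, TMED3 had 94.0 (90.0 to 98.0) and 77.2 (73.4 to 81.1), and TMED1 had 48.1 (45.2 to 51.0) and 40.8 (37.9 to 43.6). Neither lower call was kept with the running median over transcript length subtracted, at log2 ratios of -0.09 for TMED3 and -0.10 for TMED1. The summed FPKM of these 4 genes was 175 in WT and 184 in the knockout, within which TMED5 and TMED7 went from 6.14% and 12.6% to 12.1% and 23.6%.

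LMAN1, the mannose-binding lectin that exports coagulation factors V and VIII from the ER, had 38.4 (37.1 to 39.7) in WT and 72.3 (70.4 to 74.1) in the knockout, a ratio of 1.88 (1.81 to 1.96). Its locus is at chr18:56995056-57026508 (GRCh37, minus strand). MCFD2, its soluble partner, had 36.4 (34.6 to 38.1) and 53.8 (51.3 to 56.2), a ratio of 1.48 (1.38 to 1.58). The pair stood at about 1 to 1 in WT cells, with 1.05 LMAN1 per MCFD2 (0.994 to 1.12), and at 1.34 (1.28 to 1.42) in PERK-KO cells. LMAN2, a related lectin of the early secretory pathway, had 139.7 (136 to 144) and 113 (109 to 117), the lowest ratio of the 37 genes at 0.807 (0.771 to 0.845). LMAN2 exceeded LMAN1 by 3.64 times in WT and by 1.56 times in PERK-KO cells, and the sum of the lectin genes was 178 and 185.

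**Figure D2:**
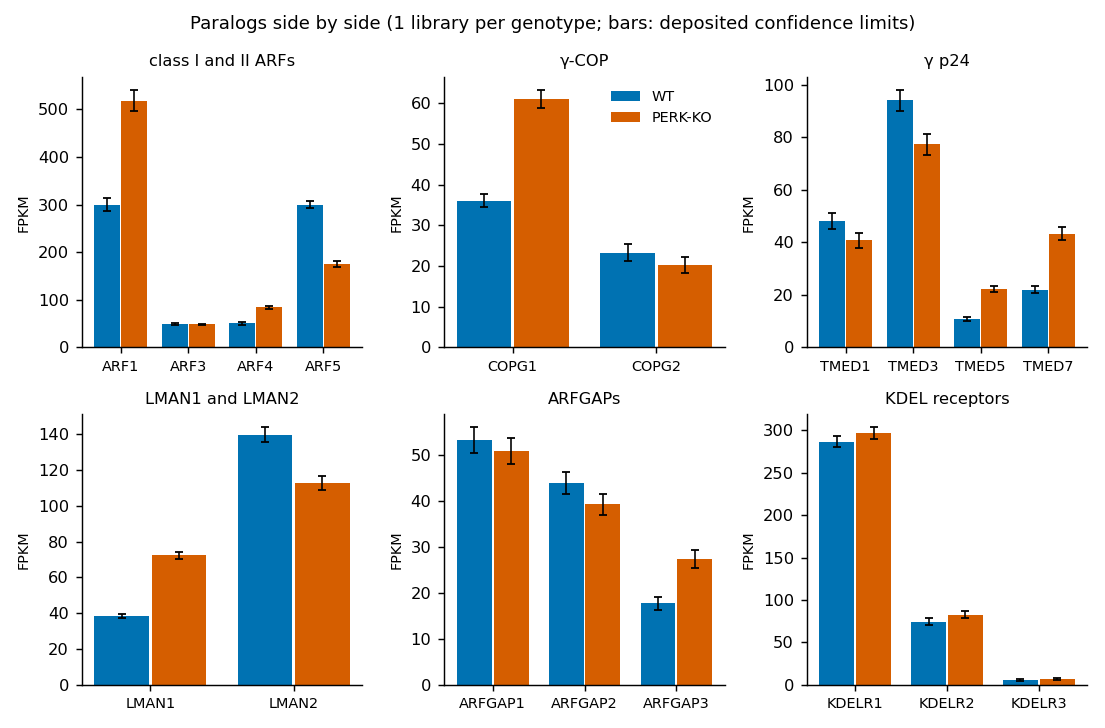
FPKM in WT and PERK-KO cells (bars from 0, 1 library each) with the deposited confidence limits, for 6 groups of paralogs. ARF1, COPG1, TMED5, TMED7, LMAN1 and ARFGAP3 are higher in PERK-KO cells beside at least 1 paralog that is lower or has overlapping intervals, ARF4 is higher together with ARF1, and the 3 KDEL receptors stay close to their WT levels.

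Of the SNAREs that fuse vesicles between the ER and the Golgi, STX5, the syntaxin of the cis-Golgi, differed most, with 33.6 (31.1 to 36.0) in WT and 55.6 (52.0 to 59.2) in the knockout, a ratio of 1.66 (1.5 to 1.83). SEC22B, the R-SNARE, had 31.9 (29.9 to 33.8) and 42.5 (40.1 to 44.8), and GOSR2, a Golgi Qb-SNARE, had 21.3 (19.7 to 22.9) and 26.5 (24.6 to 28.4). The gene annotation names pseudogene copies of SEC22B, and also of BET1, ARF1, ARF4, TMED2, TMED10, MCFD2 and GOLGA2. How shared reads were divided is not given in the sources used here, so the values of these genes are uncertain. BET1 had 6.55 (5.87 to 7.23) and 7.91 (7.12 to 8.70) and GOSR1 had 23.0 (21.7 to 24.2) and 22 (20.8 to 23.2), both with overlapping intervals. STX5 was thus the only SNARE of the 5 above 1.5-fold.

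USO1, the long coiled-coil tether that captures vesicles at the cis-Golgi, had 19.8 (18.8 to 20.8) in WT and 39.3 (37.7 to 40.8) in the knockout, a ratio of 1.98 (1.86 to 2.12). Its locus is at chr4:76649829-76735366 (GRCh37, plus strand). GOLGA2, the Golgi matrix protein that USO1 binds, had 12.1 (11.3 to 12.9) and 15.4 (14.5 to 16.3), a ratio of 1.27 (1.16 to 1.39). Of the stacking proteins, GORASP2 had 36.6 (34.3 to 38.8) and 57.8 (54.6 to 61.0), a ratio of 1.58 (1.46 to 1.72), whereas GORASP1, the partner of GOLGA2, had 9.90 (9.06 to 10.7) and 9.76 (8.88 to 10.7) with overlapping intervals. As for the γ subunits of the coat and the γ p24 proteins, 1 paralog was higher and another was not.

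**Figure D3:**
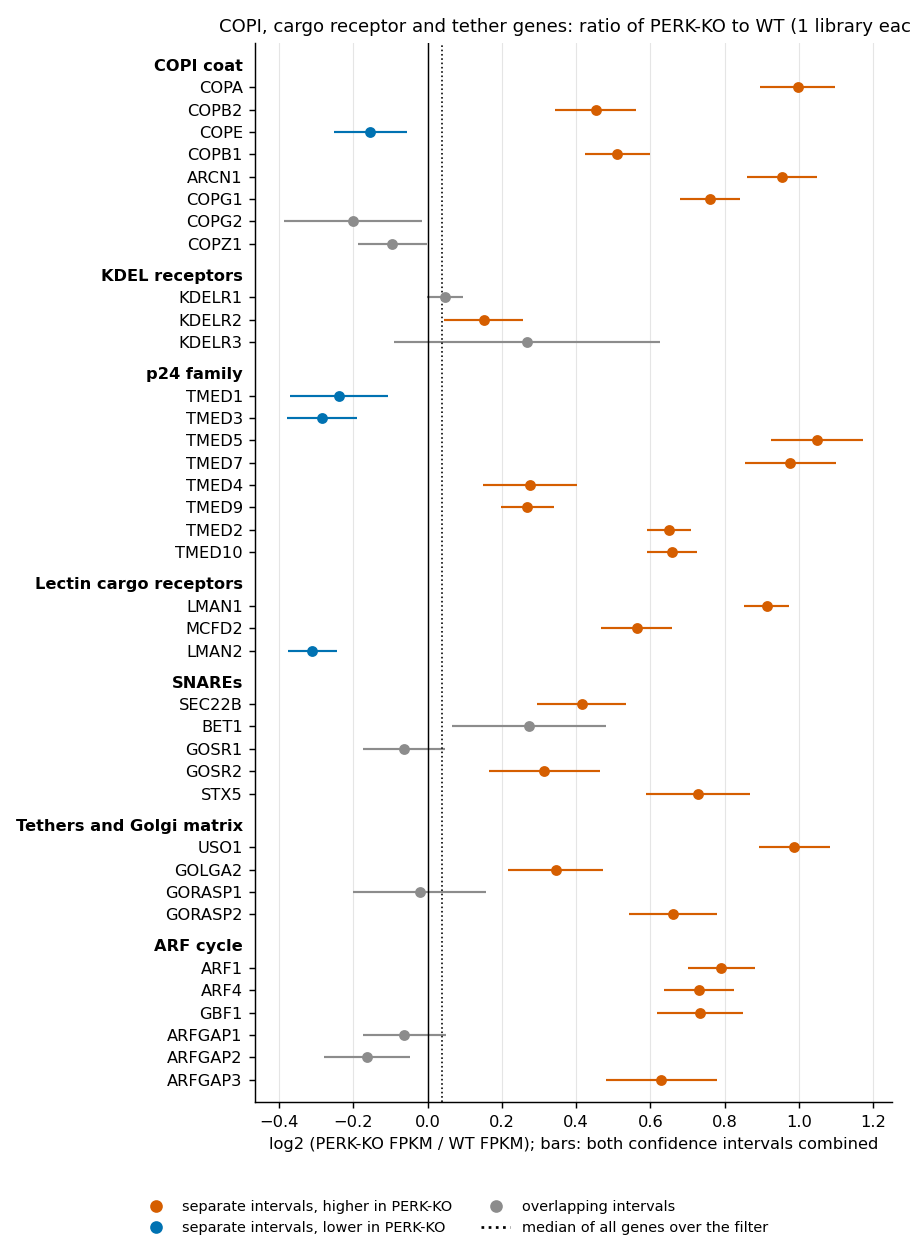
Log2 ratio of PERK-KO to WT for the 37 genes by role, with bars that combine both deposited confidence intervals (error within 1 library each), a solid line at 0 and a dotted line at the median of all rows over the filter. Every group but the KDEL receptors holds genes above 0.6, and among the genes to the left of 0 are COPE, TMED1, TMED3 and LMAN2, the 4 that were lower with separate intervals.

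Other genes of ER-Golgi traffic, a list of 57 with 55 over the filter, differed less. By separate intervals 20 of them were higher in PERK-KO cells (36.4%, against 26.1% of all rows) and 12 lower (21.8%, against 18.7%), and their median log2 ratio was 0.10. The 6 with the largest ratio in either direction among those with separate intervals were TMED8, ACBD3, ARF5, GOLGB1, COG3 and GOLGA5. TMED8, a p24-like gene, had 2.55 (1.74 to 3.37) in WT and 5.47 (4.19 to 6.74) in the knockout, and ACBD3, a Golgi adaptor, had 20.2 (19.1 to 21.3) and 35.8 (34.3 to 37.4). The golgins GOLGB1 and GOLGA5 had 8.76 and 10.4 in WT and 14.2 and 16.7 in PERK-KO cells. COG3, a subunit of the tethering complex COG, had 5.15 and 8.31. In that complex 5 of 8 subunits were higher and 0 lower, whereas in the TRAPP tethering complexes 0 of 8 listed subunits were higher and 4 lower. The listed TRAPP subunits were TRAPPC1, TRAPPC2, TRAPPC2L, TRAPPC3, TRAPPC4, TRAPPC5, TRAPPC6A and TRAPPC6B. Other TRAPP subunits were not on the list and were not examined, so the counts do not describe the whole complexes. The canonical transcripts of the COG subunits ran from 2820 bases (COG4) to 4658 (COG5). The 4 lower TRAPP subunits were TRAPPC6A (758), TRAPPC1 (812), TRAPPC2L (2163) and TRAPPC5 (5508). The transcript matched to TRAPPC5 is longer than the whole locus of its row (chr19:7745707-7747748). Its printed length may therefore not be that of the RNA measured. TRAPPC3 (1282) and TRAPPC4 (1425) had overlapping intervals. The part of length in this contrast was not tested.

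ARF5, the class II ARF most like ARF4, went the other way from ARF1 and ARF4. Its FPKM was 300.2 (292 to 308) in WT cells, level with ARF1, and 175 (169 to 182) in PERK-KO cells. ARF3, the near relative of ARF1, had 49.7 (48.0 to 51.4) and 48.3 (46.5 to 50.1), with overlapping intervals. Out of the summed FPKM of ARF1, ARF3, ARF4 and ARF5, ARF1 held 42.8% in WT and 62.8% in the knockout, and ARF5 held 42.9% and 21.2%. ARF1 therefore exceeded ARF5 by 2.96 times in PERK-KO cells (2.79 to 3.13), from a ratio of 0.998 in WT cells. The canonical transcript of ARF5 has 1032 bases and that of ARF1 has 1840. Over all genes under 1500 bases the median log2 ratio was -0.29, beside -0.78 for ARF5, and the part of length in this contrast was not tested.

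Ratios in these libraries moved with transcript length, over all genes and over the genes described here. Across the 12443 genes over the filter with a matched transcript, Spearman's rho of length and log2 ratio was 0.45, and across the 37 it was 0.54, all points being from the same pair of libraries. For transcripts over 3000 bases, which include COPA, ARCN1, LMAN1, USO1, TMED5 and TMED7, the median log2 ratio was 0.61 over 18 of the genes described here and 0.18 over all 6733. Between 1500 and 3000 bases, which include ARF1, ARF4, STX5 and TMED2, it was 0.27 over 16, among them COPG2, whose matched transcript may be cut short, and -0.05 over 3782. Below 1500 bases, where COPE, TMED3 and BET1 lie, it was -0.15 over 3 and -0.29 over 1928. Within the longest group, 15 of the 18 genes were higher with separate intervals, against 41.1% of all genes there, and in the middle group 9 of 16, against 15.5%. An alternative chosen after seeing the data subtracted the running median of all genes over length. It again gave 24 genes higher with separate intervals, with BET1 and KDELR1 in place of GOSR2 and KDELR2, and 13 above 1.5-fold, against 20.5% and 6.21% of all genes with a matched length. The count of lower genes went from 4 to 2, LMAN2 and GOSR1, against 20.1% of all genes, since TMED1 and TMED3 had overlapping intervals and COPE was 0.11 above 0 on the log2 scale. The part of length in the ratios was not tested.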

How the data were processed

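Polyadenylated RNA of 1 WT and 1 PERK-KO library of HEK293 cells was analysed. The authors mapped reads to GRCh37/hg19 with TopHat2 2.0.13 and computed values with Cufflinks 2.2.1 and Cuffdiff, per the methods and the submitters' processing notes. The deposited tables hold, over 25277 rows, FPKM and its confidence limits for each gene, and fragment totals were not analysed here. Strand setting and the handling of multi-mapped reads are not given in the sources used here.

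FPKM ratios of PERK-KO to WT were taken without a pseudocount over rows that reached an FPKM of 1 in either library. A row was called higher or lower where the confidence intervals did not overlap, or where the ratio passed 1.5-fold. Neither rule is a test, since a single library has no replicate error. The combined interval of a ratio adds the relative half-widths of both upper limits in quadrature on the log scale, so it can exclude 1 where the deposited intervals still overlap. It did so for COPG2, COPZ1 and ARFGAP2, below 1, and for BET1, above 1. FPKM are not counts, and no count model was fitted. Lengths and exon numbers came from canonical transcripts of GENCODE 44 on GRCh37, matched by name and place, and promoters from RefSeq (GRCh38.p14), matched by symbol. All 38 genes found are named, with both values. From the list of 57 related genes, the 6 with the largest ratio among those with separate intervals are named, with ARF3 and the COG and TRAPP counts added after the values were seen. The genes and lists were chosen with earlier results of these data known. 1 marker gene of other cell types is not reported here. Protein features of the receptors were planned but not analysed here. The alternatives were other filters, pseudocounts, scalings, a 2-fold threshold, summed rows and a length correction. Calculations were tested on simulated data. Python 3.11.15, numpy 2.4.6, pandas 2.3.3 and matplotlib 3.10.9 were used.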

Additional observations from a re-analysis of the deposited data

How the results depend on the processing

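The 1.5-fold count of 15 higher genes fell to 1, TMED5, at a 2-fold threshold, with COPA, USO1, TMED7 and ARCN1 just under it, a share no larger than the 3.28% of all rows past this threshold. The count of genes lower with separate intervals, 4, was 2 after the running median over transcript length was subtracted, 5 after scaling by the 75th percentile and 6 with the median of all rows set to 0. ARFGAP2 was added under both scalings and COPZ1 under the last. In the same order, 20.1% of genes with a matched length, 20.4% of all rows and 21.3% of all rows were lower by this rule. Under the 8 alternatives that keep the interval rule, 22 genes were higher with separate intervals each time, and the others of the 24, KDELR2 and GOSR2, were not under every one. Across these 8 alternatives, between 20.5% and 30.1% of all rows used were higher by this rule. The share of all rows higher under every alternative was not computed. The median log2 ratio of the genes lay between 0.38 and 0.41 under all 8, and COPE was the only gene over the filter whose ratio changed direction, in the length correction. The summed FPKM of each library was 896741 in WT and 779062 in PERK-KO. Scaling to equal sums, which would raise every ratio, was not among the alternatives. Leaving out a replicate was not possible with 1 library per genotype. No paired analysis was possible because each genotype has a single sample. Intervals cover error within a library and no replicate error, and KDELR3, BET1 and COPG2, with limits 8 to 18% from their values, could not show small differences.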

Other observations

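Some rows of the tables overlap the genes described here. NCSTN, a subunit of γ-secretase that starts back to back with COPA on chromosome 1 and overlaps it by 292 bases, had an FPKM of 23.0 (21.3 to 24.6) in WT and 32.9 (30.7 to 35.0) in PERK-KO, so both genes at this shared start were higher. SUMO1P3, which lies within the COPA locus, had 19.7 (17.7 to 21.7) and 16.7 (14.7 to 18.6), with overlapping intervals. TMED7-TICAM2, a read-through transcript that shares the TMED7 locus, had 1.62 and 2.2, far below TMED7 in both libraries. MIR3620, a microRNA row inside ARF1, was listed at 0 in WT cells and at 59.6 (0 to 179) in PERK-KO cells, an interval that reaches 0.

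In the promoter table, 336 genes over the expression filter held the TGACGTG core, of which 38.4% were higher in PERK-KO cells with separate intervals, against 28.2% of those without it. More than 1.5-fold higher were 16.1% with the core and 9.10% without it. The ER stress response element, found in none of the 32 genes described here that had a promoter entry, was in 15 genes over the filter. Of these, 80% were higher with separate intervals, against 28.4% of those without it, and 12 passed 1.5-fold. Its second form was in 14 genes, of which 64.3% were higher with separate intervals, against 28.5%, and 3 passed 1.5-fold. No test was made of these shares, with 1 library per genotype.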
